A study of Mus musculus with 48 samples.

Results

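Type IV collagen is encoded by 6 genes, Col4a1 to Col4a6, and all 6 were found among the 47643 gene identifiers counted in irradiated mouse salivary gland organoids. They were chosen by name, as the whole family, after an earlier reading of these data had shown Col4a4 among the most lowered genes 2 days after 15 Gy. The organoids were grown in Matrigel from submandibular glands of C57BL/6 mice aged 8 to 12 weeks, in medium with Wnt3a- and R-spondin1-conditioned supplements, EGF, FGF2, insulin, dexamethasone and the kinase inhibitor Y27632. On culture day 5 they received 4, 7 or 15 Gy of photons, the same doses of plateau protons, or no radiation, and RNA was taken 2 or 6 days later. Photons and protons were delivered on different days, so each radiation type and collection day had a control of its own. This gave 16 groups of 3 libraries, 1 per mouse, and 48 libraries in all. All values are from 3' end sequencing, which yields about 1 tag per transcript, so counts do not scale with transcript length. Genes can still differ in how well their 3' ends are read and assigned, which was not examined, so levels are compared between genes only roughly.

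Type IV collagen forms the sheet-like network of basement membranes, the thin matrix on which epithelia and vessels rest. Its chains fold into trimers inside the cell, and the products of Col4a1 and Col4a2 make the trimer found in nearly every basement membrane. The products of Col4a3 and Col4a4 are built with that of Col4a5 into a more restricted trimer best known from the kidney glomerulus, the cochlea and the lung, and the product of Col4a6 joins that of Col4a5 in some epithelial and smooth muscle basement membranes. In mammals the genes lie in head-to-head pairs on 3 chromosomes, Col4a1 with Col4a2, Col4a3 with Col4a4 and Col4a5 with Col4a6, and the members of a pair are transcribed away from each other. Matrigel itself contains type IV collagen protein, which RNA counts do not see.

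The promoter of Col4a4 is shown because that gene had the largest differences among the family members with enough counts for a fit, and those of Col4a1 and Col4a2 because that pair moved most closely together. Each window runs from 250 bases before to 50 after the annotated start, is taken from RefSeq on GRCm38.p6, and is written 5′ to 3′ on the strand of its gene. Of the 6 genes, 5 had an entry and Col4a3 did not. Capitals mark matches on either strand to the CCAAT box, named by its letters, or the GC box, GGGCGG.
Col4a4, chr1:82586800-82587099, minus strand: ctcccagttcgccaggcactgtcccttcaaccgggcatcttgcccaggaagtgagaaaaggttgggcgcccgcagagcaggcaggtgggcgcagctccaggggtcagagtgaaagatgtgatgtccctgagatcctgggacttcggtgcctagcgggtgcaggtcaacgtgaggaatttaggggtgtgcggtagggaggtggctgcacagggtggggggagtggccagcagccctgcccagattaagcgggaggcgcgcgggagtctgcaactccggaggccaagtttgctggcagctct
Col4a1, chr8:11312777-11313076, minus strand: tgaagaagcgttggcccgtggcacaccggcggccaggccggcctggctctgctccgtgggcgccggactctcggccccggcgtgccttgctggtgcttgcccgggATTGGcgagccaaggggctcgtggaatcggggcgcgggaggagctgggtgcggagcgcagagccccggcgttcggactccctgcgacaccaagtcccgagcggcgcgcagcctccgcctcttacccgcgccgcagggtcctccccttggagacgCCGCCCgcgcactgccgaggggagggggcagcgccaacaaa
Col4a2, chr8:11312555-11312854, plus strand: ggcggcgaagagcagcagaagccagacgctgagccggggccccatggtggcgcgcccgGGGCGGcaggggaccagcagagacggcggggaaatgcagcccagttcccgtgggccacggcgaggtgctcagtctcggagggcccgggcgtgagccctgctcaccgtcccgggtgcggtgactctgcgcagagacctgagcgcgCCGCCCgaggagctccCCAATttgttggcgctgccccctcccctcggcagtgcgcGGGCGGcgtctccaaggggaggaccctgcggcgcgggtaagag

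The annotated Col4a1 and Col4a2 starts lie 21 bases apart, each inside the other gene, so that the annotated 5′ ends overlap rather than leave a gap. Their windows share 78 bases. The Col4a5 and Col4a6 starts, on chromosome X, lie 1343 bases apart, and their windows do not overlap. The Col4a1 and Col4a2 windows were 74.0% and 73.7% G or C with 37 and 33 CpG dinucleotides, above 95.2% and 94.9% of the 32851 tabulated promoters in G and C content. The Col4a4 window was 63.3% G or C with 14 CpG. The Col4a1 window held 1 GC box and 1 CCAAT box, and the Col4a2 window held 3 GC boxes, 1 of them the same bases as the Col4a1 match, and 1 CCAAT box. The Col4a4 window held no match to either, and none of the 5 windows held the TATA box (TATAAA) or a p53 recognition decamer. Among all promoters 35.7% held the GC box, 37.4% the CCAAT box, 13.6% the TATA box and 8.36% the p53 decamer, so that the absence of each was common and describes only these letters in this window.

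Library totals ran from 314409 to 4745719 gene counts, and the shallowest, photons at 4 Gy on day 6 from mouse 3, held 18 counts of Col4a1 and 1 of Col4a4. The next shallowest held 1311666. The organoids had the marker RNAs of duct epithelium: the summed level of 5 basal duct genes (Krt5, Krt14, Krt15, Trp63 and Itga6) ran from 3617 to 17720 CPM (counts scaled to a common library size) and that of 6 luminal duct genes from 1797 to 4431 CPM. Fibroblasts and endothelium also make type IV collagen in tissue. The summed level of 8 fibroblast genes reached at most 3.95 CPM, and none of the 8 was at 0 throughout. Of 8 endothelial genes, Cdh5 and Cldn5 were at 0 in every library and Tek, Tie1 and Emcn in 44 to 46 of the 48, Pecam1 and Kdr reached at most 1.72 CPM, and Egfl7 was present in all 48 libraries at 5.40 to 27.5 CPM and gave nearly all of a sum of 5.68 to 27.5 CPM. The replicates are separate mice, and in such bulk RNA fewer cells of a type and less RNA per cell cannot be told apart.

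Of the 6 genes, 3 were well expressed and the others held a few CPM or less. Over the 48 libraries Col4a1 averaged 53.7 CPM, with single libraries between 28.9 and 81.0. Col4a5 averaged 40.5 CPM (21.5 to 69.5) and Col4a2 39.2 CPM (13.9 to 69.2). Col4a6 averaged 5.61 CPM (0.314 to 22.3), Col4a4 4.98 CPM (0.407 to 16.9) and Col4a3 0.888 CPM (0 to 4.94). Col4a3 had 114 counts in all and none in 10 libraries, and it did not pass the low-count filter of any test. Col4a6 passed in 3 of the 4 combinations of radiation type and day, and the remaining 4 genes passed in all 4.

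Within a pair the order of levels was steady. Col4a1 lay above Col4a2 in 48 of 48 libraries, and Col4a4 lay above Col4a3 in 47, with a tie in the shallowest library. Between pairs it was not. Col4a5 lay above Col4a2 in 10 of 12 and 11 of 12 photon libraries on days 2 and 6, but in 0 of 12 and 1 of 12 proton libraries. Col4a5 lay above Col4a1 in 15 libraries, all of the photon series. Col4a6 lay above Col4a4 in 8 of 12 photon libraries on day 2 and 12 of 12 on day 6, in 0 of 12 proton libraries on day 2 and in 6 of 12 on day 6. Over all 48 libraries Col4a2 lay above Col4a5 in 26 and Col4a4 above Col4a6 in 22, counts that mix series of opposite order. Unirradiated controls differed between the series too. On day 6 photon controls held 36.6 to 43.7 CPM of Col4a5 and 20.2 to 24.1 of Col4a2. Proton controls on that day held 27.8 to 33.8 and 28.4 to 40.7 CPM. The series also differ in irradiation date, and the cause of these level differences was not tested.

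**Figure D1:**
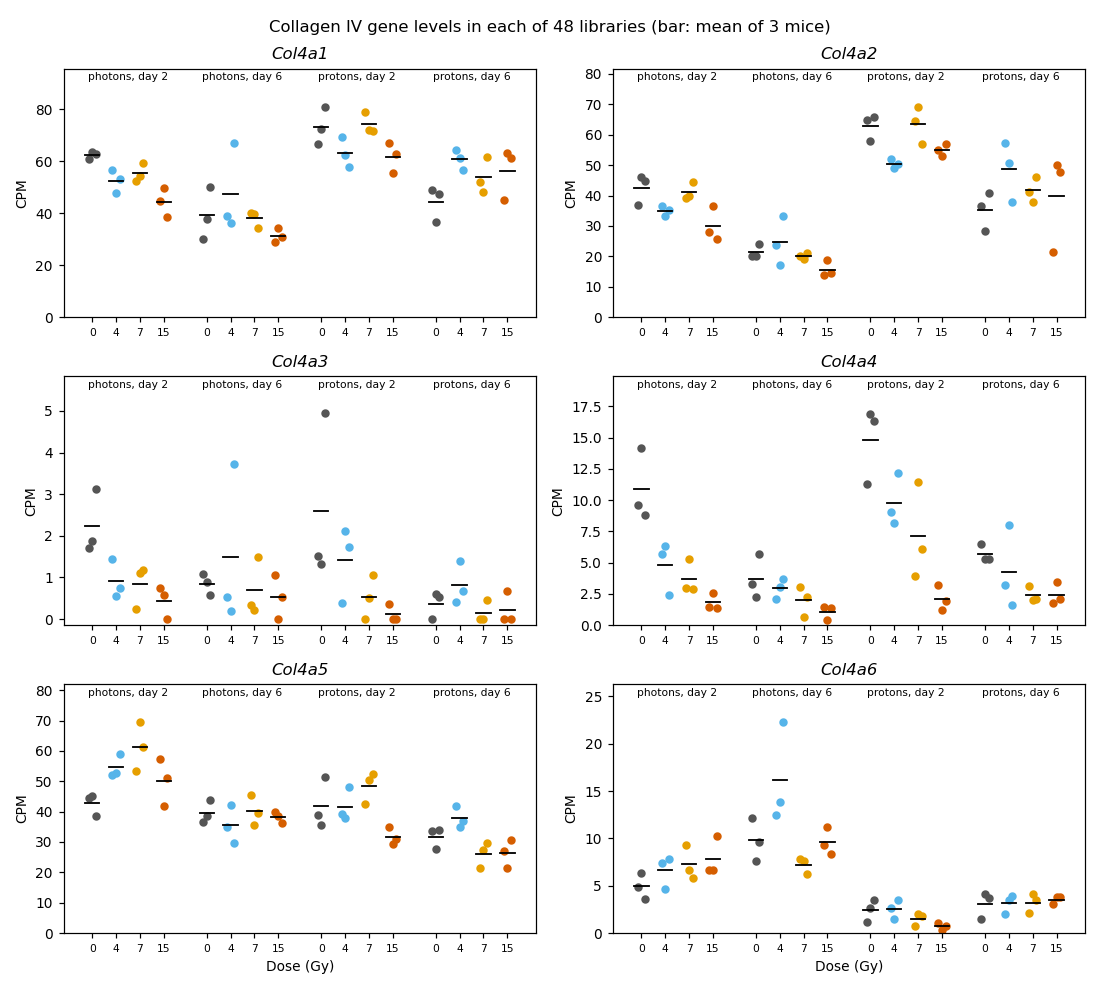
Level of each collagen IV gene in CPM (vertical axis, linear from 0, a different range per panel) in each of 48 libraries by dose in Gy, radiation type and day; points are single mice and bars are means of 3. Col4a4 runs from 16.9 CPM in a proton control on day 2 to 0.407 CPM in a photon library at 15 Gy on day 6, while Col4a1, Col4a2 and Col4a5 stay above 13 CPM in every library.

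Col4a4, the partner of Col4a3 in the restricted trimer, had a lower mean level than its control in all 12 irradiated groups, and its lowest mean at 15 Gy in 3 of the 4 combinations of radiation type and day (called series here). On day 2 after photons the 3 control libraries held 9.65, 14.2 and 8.83 CPM, those at 4 Gy 5.73, 6.35 and 2.45, those at 7 Gy 3.00, 5.28 and 2.93, and those at 15 Gy 1.48, 2.62 and 1.37. Every irradiated library lay below every control, and 2 of the 3 libraries at 15 Gy lay below all others of the series. The estimated log2 differences from control were -1.19 ± 0.36 (SE), -1.54 ± 0.37 and -2.53 ± 0.43 at 4, 7 and 15 Gy, the last being 0.173 of the control level. These levels rest on 89 counts over the 3 controls against 53, 41 and 17 at the rising doses.

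In the proton series the day 2 controls held 11.3, 16.9 and 16.3 CPM of Col4a4, the libraries at 4 Gy 9.02, 8.17 and 12.1, those at 7 Gy 3.94, 11.4 and 6.07, and those at 15 Gy 3.22, 1.26 and 1.91. The groups at 4 and 7 Gy each had 1 library inside the control range, and the group at 15 Gy lay below every other library of the series. The log2 differences were -0.60 ± 0.30, -0.99 ± 0.33 and -2.78 ± 0.39, and 15 Gy lay -2.17 ± 0.40 below 4 Gy. The middle value moved most with 1 library: without mouse 2 at 7 Gy it was -1.45.

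These day 2 differences are the ones by which the family came to be examined, so they are given without a test. Among genes past the edgeR threshold (Benjamini-Hochberg adjusted p at or under 0.05) averaging 5 CPM or more and moving one way in all 3 mice, Col4a4 had the 5th lowest log2 difference of 504 at 15 Gy of photons, just behind Apoe (-2.76) and level with Gm94 (-2.53), the first gene outside the lowest 5. At 15 Gy of protons it had the 4th lowest of 814, between Hey1 (-2.80) and Selenbp1 (-2.67), with Dapl1 (-2.66) the first outside.

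Col4a3, transcribed from the other side of the same locus, had too few counts for a fitted value. On day 2 after photons its counts were 6, 5 and 6 in controls, 5, 2 and 3 at 4 Gy, 1, 4 and 4 at 7 Gy, and 2, 2 and 0 at 15 Gy. The proton counts were 4, 3 and 10 in controls, 1, 7 and 4 at 4 Gy, 0, 1 and 3 at 7 Gy, and 1, 0 and 0 at 15 Gy. Both series thus had their lowest summed counts at 15 Gy. Scaled for depth, the summed level at 15 Gy was 0.211 of control for photons, with an exact 95% counting interval of 0.0516 to 0.647, and 0.0475 of control for protons, from 1 count against 17, with an interval of 0.00114 to 0.303. At 4 Gy the ratios were 0.427 (0.175 to 0.988) and 0.592 (0.258 to 1.32). The intervals cover counting error only and not the spread between mice.

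By day 6 the controls themselves held less Col4a4, and at 15 Gy the estimated difference from control was smaller in size than on day 2. After photons the controls held 3.27, 2.25 and 5.68 CPM, the libraries at 4 Gy 2.08, 3.07 and 3.71, those at 7 Gy 3.05, 0.690 and 2.25, and those at 15 Gy 1.43, 0.407 and 1.35. Only the group at 15 Gy lay wholly below its controls. The share of all genes that did so on day 6 is not given here, so this describes these libraries only. Its log2 difference was -1.94 ± 0.55 with a 95% interval of -3.12 to -0.76, and the edgeR quasi-likelihood test gave an adjusted p of 0.0564 over all genes, just short of the threshold, so it was not called. The values at 4 and 7 Gy were -0.53 ± 0.49 (adjusted p = 0.863 in edgeR) and -1.02 ± 0.49 (adjusted p = 0.440).

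Whether the photon difference at 15 Gy passed depended on the fit. It passed with mouse as a block (-1.86, edgeR adjusted p = 0.0441), without the low-count filter (-1.94, adjusted p = 0.00529), without the shallow library at 4 Gy from mouse 3 (adjusted p = 0.0459) and without mouse 2 at 7 Gy (adjusted p = 0.0420). Leaving out other single libraries gave values between -2.23 and -1.45 and adjusted p-values up to 0.297, so the test does not settle whether Col4a4 was still lower on day 6 after photons.

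After protons the day 6 controls held 6.49, 5.32 and 5.29 CPM of Col4a4, the libraries at 4 Gy 3.24, 8.03 and 1.59, those at 7 Gy 3.12, 2.04 and 2.09, and those at 15 Gy 1.81, 3.42 and 2.06. The groups at 7 and 15 Gy lay wholly below the controls, and the group at 4 Gy spread across them. Here too the share of all genes that did so is not given. The log2 differences were -0.49 ± 0.47, -1.26 ± 0.51 and -1.23 ± 0.52, with edgeR adjusted p-values of 0.759, 0.118 and 0.0925 and a 95% interval at 15 Gy of -2.32 to -0.14. The 15 Gy difference passed when the scattered library at 4 Gy from mouse 2 was left out (-1.23, edgeR adjusted p = 0.0397), and over single omissions it ran from -1.55 to -1.05. Col4a3 on day 6 had 9, 4, 8 and 5 counts over the 3 libraries of the photon groups at 0, 4, 7 and 15 Gy and 2, 8, 2 and 2 in the proton groups, and all of these ratios had intervals that included 1.

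**Figure D2:**
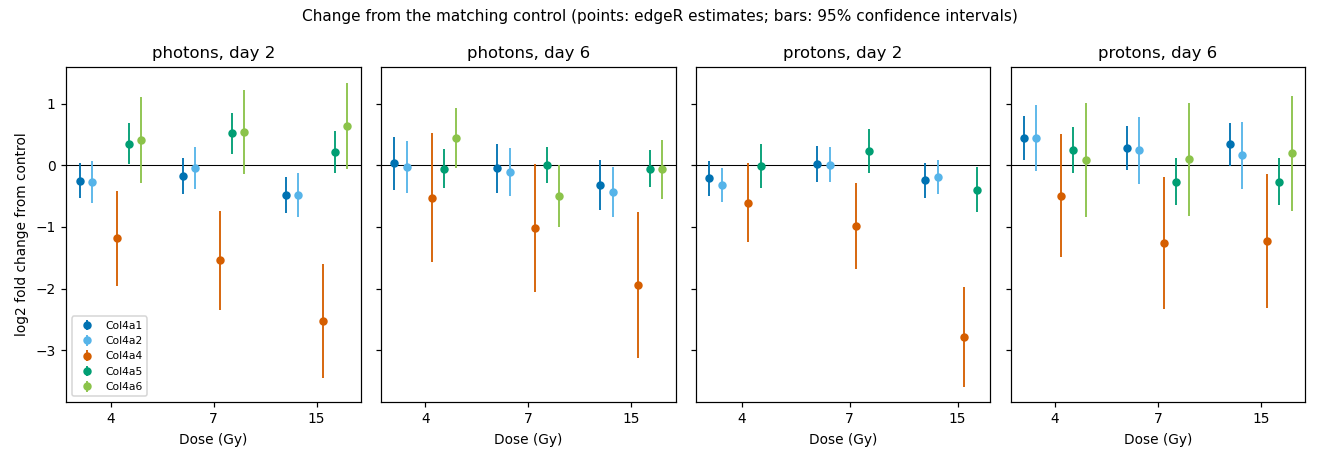
Log2 fold change from the matching control (vertical axis) by dose in Gy (horizontal axis) for the tested collagen IV genes in the 4 series; points are edgeR estimates from 3 libraries per group and bars are 95% confidence intervals. Col4a4 is the lowest point at every dose in all 4 panels, down to -2.78 at 15 Gy of protons on day 2, while the other genes lie between -0.50 and 0.64.

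Col4a1 and Col4a2, the chains of the general trimer, differed from control by estimates of at most 0.49 on the log2 scale in either direction, at every dose in all 4 series. On day 2 after photons Col4a1 held 61.04, 63.6 and 62.8 CPM in controls and 44.8, 49.7 and 38.7 at 15 Gy, and Col4a2 held 36.9, 45.99 and 44.6 against 28.1, 36.6 and 25.7. For both genes the libraries at 15 Gy lay below all controls, with log2 differences of -0.49 ± 0.14 and -0.48 ± 0.16. The corresponding proton differences were -0.25 ± 0.14 and -0.19 ± 0.13. At 4 and 7 Gy on day 2 the values of both genes ran from -0.32 to 0.02.

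On day 6 the sign of the estimates depended on the series. After photons the log2 differences at 15 Gy were -0.31 ± 0.19 for Col4a1 and -0.44 ± 0.19 for Col4a2, with edgeR adjusted p-values of 0.435 and 0.242. After protons they were 0.34 ± 0.17 and 0.16 ± 0.26, with adjusted p-values of 0.158 and 0.690. The proton control libraries on day 6 held 48.9, 36.7 and 47.6 CPM of Col4a1 against 64.5, 61.06 and 56.6 at 4 Gy, 52.01, 48.0 and 61.6 at 7 Gy and 44.98, 63.003 and 61.2 at 15 Gy. At 4 Gy all 3 libraries lay above the controls, with a difference of 0.44 ± 0.17 (edgeR adjusted p = 0.270). The share of all genes separated in this way is not given, so nothing is read from it. At 15 Gy mouse 1 was low for both genes, with 21.4 CPM of Col4a2 against 50.0 and 47.8 in the other mice, and without that library the Col4a1 difference was 0.48 and passed (adjusted p = 0.0338). It also passed with library size in place of TMM scaling (0.49, adjusted p = 0.0365).

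Col4a5, a chain of both the less common trimers, held at least 21.5 CPM in every library. On day 2 after photons it held 44.6, 45.2 and 38.4 CPM in controls, 52.2, 52.7 and 59.1 at 4 Gy, 53.5, 69.5 and 61.1 at 7 Gy and 57.4, 41.9 and 51.01 at 15 Gy. The groups at 4 and 7 Gy lay above all controls, with log2 differences of 0.35 ± 0.16 and 0.52 ± 0.15, while that at 15 Gy overlapped them (0.22 ± 0.16). In the proton series on day 2, 15 Gy lay below all controls, at 35.0, 29.2 and 31.0 CPM against 38.7, 35.5 and 51.4, a difference of -0.39 ± 0.17. On day 6 the 6 dose groups differed from control by -0.27 to 0.25, with edgeR adjusted p-values from 0.319 to 1.00.

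Col4a6, its head-to-head partner, was one of the low genes, and its levels differed most between the series. Photon controls held 4.83, 6.36 and 3.63 CPM on day 2 and 12.2, 7.65 and 9.66 on day 6, and proton controls held 1.13, 2.66 and 3.46 and then 1.50, 4.14 and 3.70. At 15 Gy on day 2 the photon libraries held 6.66, 6.69 and 10.3 CPM, above all controls, a log2 difference of 0.64 ± 0.32. The proton libraries at 15 Gy held 1.07, 0.314 and 0.765 CPM, below all controls. That proton group had 6 counts against 16, a depth-scaled ratio of 0.303 with a counting interval of 0.097 to 0.814. On day 6 the differences at 15 Gy were -0.06 ± 0.22 after photons and 0.20 ± 0.44 after protons (edgeR adjusted p = 0.933 and 0.785).

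Counted over the family, groups at 15 Gy on day 2 lay wholly below control for 3 of the 5 tested genes after photons (Col4a1, Col4a2 and Col4a4) and wholly above for 1 (Col4a6), where 10.6% and 10.5% of all genes did so. After protons they lay below for 3 of the 4 tested genes (Col4a2, Col4a4 and Col4a5), where 15.8% of all genes did, and above for none, against 16.4%. The day 2 contrasts chose the family, so nothing is read from these shares. For 4 and 7 Gy and for day 6 such shares are not given, so separated groups there describe these libraries only. On day 6 edgeR called none of the 5 tested genes at any dose. The share of all genes called in either direction was 1.23%, 2.61% and 5.29% at 4, 7 and 15 Gy of photons and 1.56%, 12.1% and 24.2% of protons. At an unadjusted p under 0.05 there were 2 genes at 15 Gy of photons, 1 at each dose of protons, and 0 at 4 and 7 Gy of photons. DESeq2 called none either. On day 6 after protons library size in place of TMM scaling moved the median of all genes by 0.11, 0.19 and 0.15 on the log2 scale at 4, 7 and 15 Gy. The share of called genes that were higher moved with it from 72.2, 45.4 and 45.3% to 87.0, 78.7 and 67.8%, so proton differences on that day are relative to the scaling. Against 4 Gy, 15 Gy likewise had 0 of 5 called on day 6 in both series by either tool (0.141% and 6.7% of all genes in edgeR), with 2 genes after photons and 1 after protons at an unadjusted p under 0.05. Of these the nearest was Col4a5 after protons, at -0.51 ± 0.17 (edgeR adjusted p = 0.0829), with 27.2, 21.6 and 30.6 CPM at 15 Gy below 41.8, 34.9 and 37.0 at 4 Gy.

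The median log2 difference of the tested family members at 15 Gy was -0.48 and -0.32 on day 2 after photons and protons, and -0.31 and 0.16 on day 6. Over all genes tested it lay between -0.03 and 0.00 in the same 4 contrasts.

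For Col4a1 and Col4a2 the estimates for time in culture were larger than those for any dose. Among unirradiated organoids, Col4a1 fell between day 2 and day 6 by 0.70 ± 0.17 on the log2 scale in the photon series (edgeR adjusted p = 0.00604) and by 0.79 ± 0.16 in the proton series (adjusted p = 0.000654). Col4a2 fell by 1.00 ± 0.17 (adjusted p = 0.000258) and 0.91 ± 0.22 (adjusted p = 0.00387). Both genes were lower in every day 6 control than in every day 2 control of their series. The share of all genes that did so is not given here, so this describes these libraries only. The summed level of the basal duct markers was lower on day 6 too: in controls it was 9899 to 15487 CPM on day 2 and 5581 to 6497 on day 6 in the photon series, and 11718 to 14820 and 6966 to 8105 in the proton series. Of the 5 genes, Krt14, Krt5 and Itga6 fell in both series, and the log2 differences of Krt14 were -1.75 ± 0.26 and -1.46 ± 0.18 (edgeR adjusted p = 5.3e-05 and 1.25e-06). Trp63 and Krt15 were called in neither. Trp63 differed by -0.04 ± 0.15 and -0.31 ± 0.17, and Krt15 by -0.47 ± 0.18 and 0.44 ± 0.19, in the photon and proton series. The part of the basal markers in the collagen differences was not tested. The Col4a1 call in the photon series was lost without mouse 1 of the day 6 controls (-0.53, adjusted p = 0.0578).

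Col4a6 went the other way in the photon series, rising by 0.97 ± 0.28 (edgeR adjusted p = 0.0220), a call that was lost without mouse 1 or mouse 3 of the day 2 controls or mouse 1 of the day 6 controls (adjusted p = 0.0666, 0.0651 and 0.151). In the proton series its difference was 0.31 ± 0.50 (adjusted p = 0.741). Col4a5 differed by -0.15 ± 0.15 and -0.47 ± 0.18 in the photon and proton series (edgeR adjusted p = 0.589 and 0.0640). The proton value passed with mouse as a block (adjusted p = 0.0486) and without mouse 2 of the day 2 controls (adjusted p = 0.0438). Col4a4 controls, used in choosing the family, were lower on day 6 by log2 values of -1.53 ± 0.40 and -1.43 ± 0.40, and are given without a test. Of the 4 genes tested for culture time, 2 fell and 1 rose in the photon series, where 8.48% of all genes fell and 6.25% rose, and 2 fell in the proton series, where 9.15% fell and 8.28% rose.

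For Col4a4 the day 6 difference at 15 Gy minus the day 2 difference was 0.60 ± 0.81 for photons, within its error, and 1.55 ± 0.70 for protons. In the photon series mean levels fell in controls from 10.9 to 3.73 CPM and at 15 Gy from 1.82 to 1.06 CPM, and in the proton series they went from 14.8 to 5.70 CPM and from 2.13 to 2.43 CPM. The comparison rests partly on the contrasts that chose the gene and is a description.

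Proton and photon differences from control were set against each other in one fit of both series on day 6. None of the 5 genes was called at 4, 7 or 15 Gy, where 0%, 0% and 4.41% of all genes were. DESeq2 called none at any dose. At an unadjusted p under 0.05 there was 1 gene, Col4a1 at 15 Gy. Protons minus photons at 15 Gy came to 0.70 ± 0.27 for Col4a1 (95% interval 0.15 to 1.25, edgeR adjusted p = 0.121), 0.65 ± 0.35 for Col4a2 (-0.08 to 1.37, adjusted p = 0.287) and 0.75 ± 0.80 for Col4a4 (-0.90 to 2.40, adjusted p = 0.629). Without the low proton library of mouse 1 at 15 Gy the differences for Col4a1 and Col4a2 were 0.83 and 0.94 and passed (adjusted p = 0.0415 and 0.0298). For Col4a5 and Col4a6 the values were -0.16 ± 0.22 and 0.30 ± 0.47.

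The partners of the 3 pairs were linked to different degrees. Across the 48 libraries, with each radiation type and day centred on its own mean, Pearson's r between log2 levels was 0.83 for Col4a1 and Col4a2, 0.65 for Col4a3 and Col4a4, and 0.21 for Col4a5 and Col4a6, with Spearman's rho of 0.80, 0.64 and 0.14. These are descriptions over libraries that share mice and depth, and the low counts of Col4a3 and Col4a6 limit the last 2 values. Centring left differences between doses in all of these values. Within single series r ranged from 0.70 to 0.92 for the first pair, from 0.42 to 0.78 for the middle pair and from -0.55 to 0.67 for the last. The log2 ratio of Col4a1 to Col4a2 averaged 0.56 ± 0.14 (SD, n = 3) in photon controls and 0.56 ± 0.11 at 15 Gy on day 2, and 0.22 ± 0.16 and 0.16 ± 0.11 in the proton series, so on day 2 the groups at 15 Gy differed from control by less than 1 SD. On day 6 it was 0.83 ± 0.24 and 0.98 ± 0.11 in the photon series and 0.33 ± 0.10 and 0.58 ± 0.41 in the proton series, where mouse 1 at 15 Gy stood at 1.05 and the groups overlapped. The log2 ratio of Col4a5 to Col4a6 on day 2 averaged 2.99 ± 0.25 in photon controls and 2.59 ± 0.38 at 15 Gy. In the proton series it averaged 3.79 ± 0.51 in controls and 4.45 ± 0.26 at 15 Gy, the latter resting on 6 counts of Col4a6. The libraries at 15 Gy overlapped the controls in both series.

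**Figure D3:**
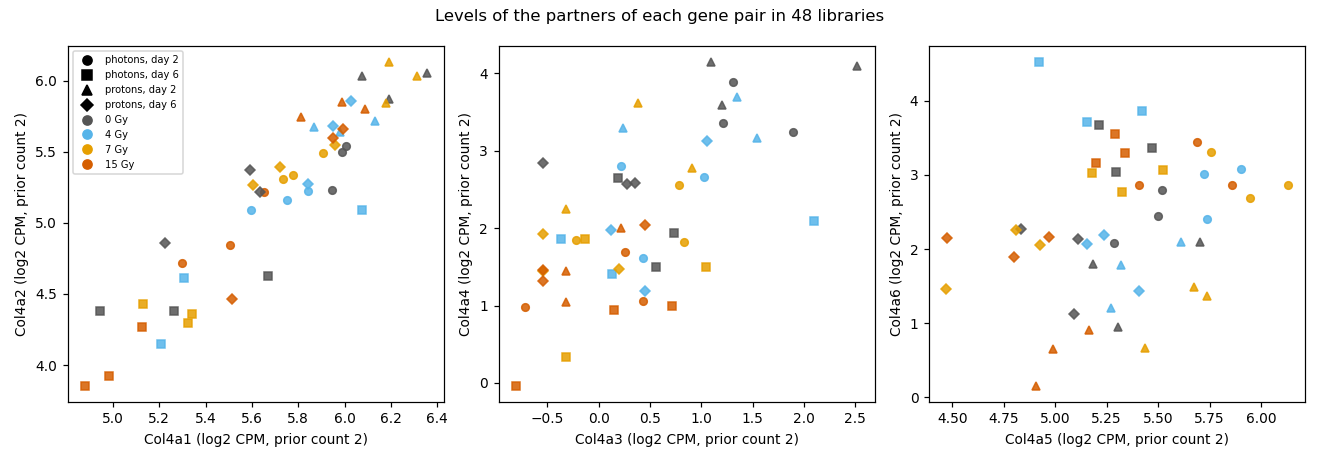
Log2 CPM of the members of each head-to-head pair in 48 libraries, 1 point per library, with symbols for radiation type and day and colours for dose. The Col4a1 and Col4a2 points lie along a line (r = 0.83 after centring), the Col4a3 and Col4a4 points more loosely (0.65), and the Col4a5 and Col4a6 points show little relation (0.21).

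Over the same 48 centred libraries, and among 9821 to 9823 genes averaging 5 CPM or more, those most like the summed level of Col4a3 and Col4a4 were P4ha1 (r = 0.82), which encodes a catalytic subunit of the prolyl hydroxylase that hydroxylates collagen chains, Map3k1 (0.82), a kinase of the stress-activated cascade, Parm1 (0.82), the membrane skeleton gene Add3 (0.81) and the bicarbonate transporter Slc4a7 (0.80). By rank correlation they stood 5th, 2nd, 1st, 3rd and 6th. The summed level was mostly Col4a4, which averaged 4.98 CPM against 0.888 CPM for Col4a3. Centring left the dose differences in, and the libraries include those whose Col4a4 levels chose the family. A gene that fell with dose could therefore rank high here, and likeness apart from dose was not tested. The genes most like Col4a1 and Col4a2 were Rassf4 (0.73), the retinol transporter Stra6 (0.72), Crispld2 (0.71), the mitotic kinesin Kif14 (0.70) and Spef1 (0.68). For Col4a5 and Col4a6 the closest reached only 0.57 (Capzb, which caps actin filaments), followed by Pla2g4a, Irx2, Epcam and Pgm2 at 0.56 to 0.54.

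The genes that make, fold, link, bind and cut basement membrane collagen were examined in 6 lists, of which the shares of all genes called at 15 Gy are the backdrop: 4.96% and 5.29% after photons and 8.31% and 24.2% after protons, on days 2 and 6. Of 18 tested basement membrane partners, 1 rose and 1 fell on day 2 and 1 rose on day 6 after photons. After protons 1 rose and 1 fell on day 2, and 4 rose and 4 fell on day 6. With library size in place of TMM scaling 8 rose there, and 7 without the low-count filter. Col18a1, the basement membrane collagen whose tail is endostatin, rose in all 4 series, by log2 values of 0.78 ± 0.16, 0.52 ± 0.14, 0.40 ± 0.12 and 0.91 ± 0.14 in the order photon day 2 and 6 and proton day 2 and 6 (edgeR adjusted p = 0.0124, 0.0414, 0.0401 and 0.000159). Of 16 alternatives per series it kept its direction in all and passed in 14, 8, 8 and 16, the estimates without single libraries lying at 0.33 or above. On day 6 after protons the laminin chain gene Lamb1 rose by 0.97 ± 0.16 (adjusted p = 0.000332) and the heparan sulphate proteoglycan gene Agrn by 0.92 ± 0.15 (adjusted p = 0.000227). The matricellular gene Smoc2 fell by 2.64 ± 0.48 there (edgeR adjusted p = 0.000758) and by 1.67 ± 0.42 on day 2 after photons (adjusted p = 0.0389), a call that passed in 5 of 16 alternatives.

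Calls among the collagen folding and secretion genes were most frequent on day 6 after protons. Of 22 tested there, 9 fell and none rose, with a list median of -0.26 against -0.02 over all genes. In the other series 1 rose and 1 fell of 23 on day 2 and of 22 on day 6 after photons, and 2 of 22 fell on day 2 after protons. P4ha1 fell in all 4 series, by 0.62 ± 0.16, 0.72 ± 0.18, 1.14 ± 0.15 and 1.13 ± 0.20 in the same order (edgeR adjusted p = 0.0386, 0.0300, 0.000145 and 0.000469), and passed in 8, 11, 16 and 16 of the 16 alternatives, always with the same sign. Its sister P4ha2 fell after protons by 0.99 ± 0.15 on day 2 and 0.69 ± 0.14 on day 6 (adjusted p = 0.000302 and 0.00134). On day 6 after protons Kdelr3, which returns resident proteins to the endoplasmic reticulum, fell by 1.50 ± 0.25 and the prolyl isomerase gene Ppib by 0.96 ± 0.16 (edgeR adjusted p = 0.000296 and 0.000433).

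Of the enzymes that link collagens, none of 4 or 5 tested genes was called at 15 Gy of photons or on day 6 after protons, and on day 2 after protons 2 of 5 were called lower, 1 of them Lox, which fell by 1.65 ± 0.22 (edgeR adjusted p = 0.000147). The other was Loxl2, a lysyl oxidase known to crosslink type IV collagen, at 5.22 ± 0.29 CPM in those controls (SD, n = 3) and 2.82 ± 0.35, 2.55 ± 1.89 and 0.462 ± 0.551 CPM at 4, 7 and 15 Gy. It passed the low-count filter through the controls, where it was high, so its call is not read as a result. Loxl4 and Tgm2 were called at 15 Gy in no series, with edgeR adjusted p-values of 0.064 and above. Of 10 or 11 receptors, Cd44 rose on day 2 after photons by 1.01 ± 0.22 (edgeR adjusted p = 0.0161). That call was lost without mouse 1 or mouse 3 at 15 Gy (0.99 and 0.92, adjusted p = 0.0679 and 0.0706). No receptor was called on day 6 after photons or on day 2 after protons. On day 6 after protons 1 rose, the integrin chain gene Itga3, by 0.76 ± 0.16 (adjusted p = 0.00266). There 3 receptors fell, among them the collagen receptor kinase gene Ddr1 by 1.02 ± 0.13 and the dystroglycan gene Dag1 by 1.04 ± 0.13 (edgeR adjusted p = 2.48e-05 and 2.62e-05).

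Of 9 or 10 matrix proteases and inhibitors, 2 and 1 fell after photons on days 2 and 6 and 4 and 3 after protons, while 1 rose, on day 6 after protons. Without mouse 2 of the day 2 proton controls 2 fell on that day. Timp3, a matrix-bound metalloproteinase inhibitor, fell on day 2 after photons and on days 2 and 6 after protons by 0.73 ± 0.13, 1.12 ± 0.16 and 1.09 ± 0.18 (edgeR adjusted p = 0.00476, 0.000282 and 0.000395). The protease gene Adamts1 fell by 0.95 ± 0.23 on day 6 after photons and 0.86 ± 0.19 on day 2 after protons (adjusted p = 0.0250 and 0.00720), calls that passed in 11 and 15 of 16 alternatives, and the membrane-bound protease gene Mmp14 rose by 0.65 ± 0.16 on day 6 after protons (adjusted p = 0.00830). Of 2 fibrillar collagens tested in each series, Col11a1 fell on day 2 after protons by 2.07 ± 0.36 (edgeR adjusted p = 0.00123). Col2a1, called higher on day 6 after photons, passed the filter through the 15 Gy libraries, where it was high, and is given as levels only, 0.719 ± 0.663 CPM in controls and 3.93 ± 0.61 at 15 Gy. Col27a1 was not called in the 3 series that tested it.

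**Figure D4:**
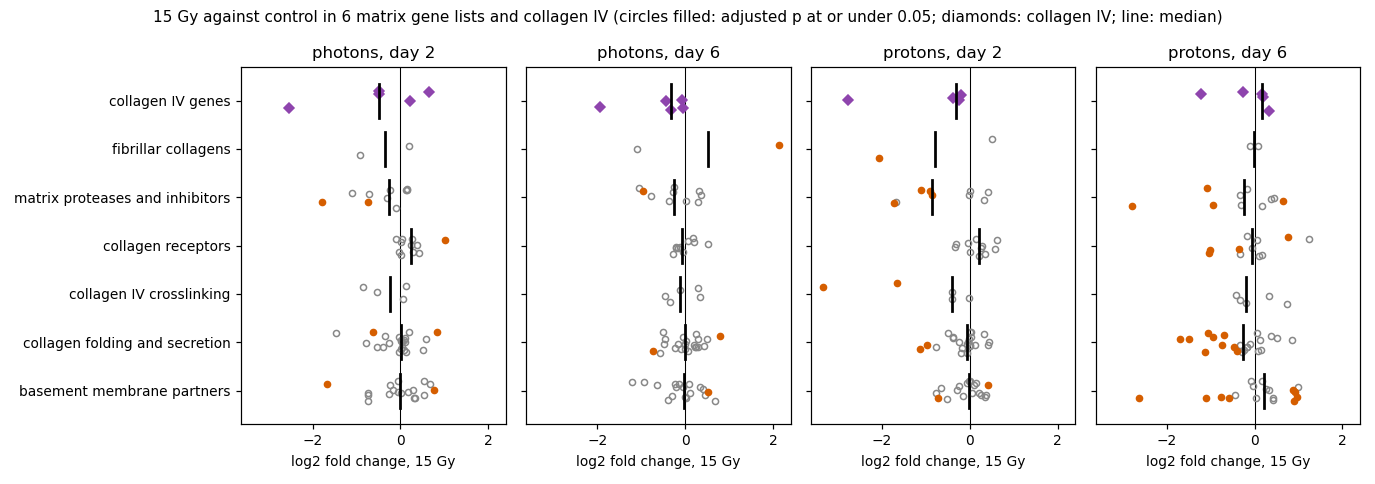
Log2 fold change at 15 Gy against control (horizontal axis) of each tested gene in 6 matrix gene lists and of the collagen IV genes, by series; filled circles passed the edgeR threshold, diamonds are the collagen IV genes and black lines are list medians. On day 6 after protons 9 of 22 folding and secretion genes lie filled and to the left of 0, and in all 4 panels the leftmost diamond is Col4a4.

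The lists were also set against culture time, for which 8.48% of all genes fell and 6.25% rose in the photon series and 9.15% and 8.28% in the proton series. Between day 2 and day 6 controls, 7 of 18 basement membrane partners fell and 1 rose in the photon series (median -0.39), and 10 of 18 fell in the proton series (median -0.59), with medians over all genes of -0.01 and 0.01. The gene that rose was Lamb2, which encodes a laminin chain (0.54 ± 0.18, edgeR adjusted p = 0.0445), and the laminin chain gene Lama5 was not called in either (0.21 ± 0.13 and 0.17 ± 0.21). Both were named after their values were seen. Col18a1 was among those that fell in both, by 0.77 ± 0.15 and 1.01 ± 0.13 (edgeR adjusted p = 0.000783 and 1.42e-06), and Lamb1 fell by 0.78 ± 0.15 in the proton series (adjusted p = 0.000352). Of 11 receptors 6 fell in the photon series, and 4 fell and 1 rose in the proton series. Without mouse 1 of the day 6 photon controls 2 receptors fell, and without mouse 2 of the day 6 proton controls 6 basement membrane partners fell. Of the proteases and inhibitors 4 of 10 rose and 1 fell, and 6 of 11 rose and 2 fell. The crosslinking transglutaminase gene Tgm2 rose by 2.07 ± 0.27 and 2.15 ± 0.24 (adjusted p = 1.2e-05 and 2.51e-07).

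Acinar markers were low throughout, and the median of their summed level was lower at 15 Gy than in controls in all 4 series. Nearly all of the sum of 7 genes came from the water channel gene Aqp5 and from Amy1, and the other 5 had at most 15 counts each over all 48 libraries. On day 2 it was 8.23 to 27.0 CPM in photon controls and 3.77 to 8.52 CPM at 15 Gy, which overlap, and 7.55 to 14.8 against 2.20 to 3.93 CPM in the proton series. Aqp5 differed by -1.57 ± 0.45 on day 2 after photons without passing (edgeR adjusted p = 0.0640). It fell by 2.34 ± 0.40 on day 2 after protons (adjusted p = 0.00106) and on day 6 after both, with differences of -2.05 ± 0.45 for photons and -2.05 ± 0.54 for protons (edgeR adjusted p = 0.0132 and 0.0107). Amy1 had enough counts for this test only on day 6 after photons, where it did not fall (0.30 ± 0.48, edgeR adjusted p = 0.821). The lower sums thus describe mainly Aqp5 and not acinar markers as a set.

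The basal duct sum was 9899 to 15487 CPM in photon controls and 10667 to 12815 CPM at 15 Gy on day 2, and 11718 to 14820 against 15340 to 17720 CPM in the proton series. Within that proton sum Trp63 fell by 0.79 ± 0.15 (edgeR adjusted p = 0.00327), and none of the other basal genes was called. On day 6 the basal sum was 5581 to 6497 against 4510 to 4935 CPM after photons and 6966 to 8105 against 3617 to 4666 CPM after protons. All 5 basal genes fell at 15 Gy on day 6 after protons, Krt5 by 0.94 ± 0.13 and Trp63 by 1.46 ± 0.19 (edgeR adjusted p = 5.54e-05 and 2.61e-05). The luminal genes went both ways there. The keratin genes Krt18 and Krt8 rose by 1.179 ± 0.171 and 0.55 ± 0.18 (edgeR adjusted p = 9.92e-05 and 0.0314). Elf3 and Krt19 fell by 2.22 ± 0.20 and 0.92 ± 0.18 (edgeR adjusted p = 3.42e-07 and 0.00124), and Krt7 and Epcam were not called. After photons on that day 2 of the 5 fell, Krt14 and Trp63. These shifts stood beside the day 6 changes in the matrix lists, and the part of the acinar and basal markers in the collagen IV and list differences was not tested. Of the 6 pericyte and smooth muscle genes, Mcam and Notch3 gave nearly all of a sum of 91.1 to 454 CPM, while Des and Pdgfrb were at 0 in 47 and 44 libraries. At 15 Gy Mcam rose on day 2 after photons and on days 2 and 6 after protons, by 1.10 ± 0.18, 0.74 ± 0.19 and 1.01 ± 0.27 (edgeR adjusted p = 0.00236, 0.0213 and 0.0115). On day 6 after photons it did not pass (0.77 ± 0.22, adjusted p = 0.0607), and Notch3 was called in no series. The part of Mcam in the collagen differences was not tested.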

How the data were processed

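RNA of 48 organoid libraries was measured by QuantSeq 3' sequencing, and per the labels' protocols 100 ng with an integrity number over 9 went into each. The deposited files give, as the authors made them, the whole-number count of reads assigned to each gene. The submitters' processing notes name the build GRCm39 and edgeR, while the aligner, counter, strand setting and annotation are not stated there or in the labels. Whether reads of antisense or overlapping genes were separated by strand is therefore not known. The members of a pair are transcribed away from each other, so the 3' ends that the tags read lie apart. The 5 summary lines per file were left out, among them reads outside genes at 7.88 to 12.1% of a library. The 4 deposited CPM tables were not used. Symbols came from the reference table for 47224 of 47643 identifiers. No gene coordinates are given because the reference is of GRCm38, and the promoter windows carry that build.

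The counts went into edgeR 4.0.16 under R 4.3.3 (TMM scaling, filterByExpr, quasi-likelihood F test, Benjamini-Hochberg adjustment over all genes tested, threshold 0.05). A separate fit of 12 libraries served each radiation type and day, and fits of 24 libraries compared days or radiation types, 30 comparisons in all. Genes tested numbered 11039 and 11308 for photons and 10529 and 10810 for protons on days 2 and 6. The SE of a log2 difference was obtained by dividing it by the root of its F statistic. CPM used TMM-adjusted library sizes within each radiation type and day, and log2 CPM a prior count of 2. Sums of counts were compared by exact conditional intervals at 95%, which cover counting error only. On simulated data changed by 1 log2 unit at 15 Gy the test recovered 49.5% and 69.0% of genes for photons and 66.3% and 60.6% for protons on days 2 and 6, and at 2 log2 units 92.9%, 95.9%, 98.0% and 96.0%. The changed genes were drawn at random from all genes tested. Recovery at counts as low as those of Col4a4 and Col4a6 was not examined separately.

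All libraries were grouped by title. Per the labels, numbers mark mice, shared by the groups of a radiation type, and mouse was a term only in an alternative fit. Over 8339 genes, deviations from group means correlated between same-numbered libraries at 0.081, 0.076, 0.081 and -0.037 on average in the 4 series, and between others at -0.045, -0.035, -0.039 and 0.018. From the labels it is unclear if photon and proton organoids came from the same 3 mice. Each pair of replicates differed by more than sampling noise. The 6 genes and all lists were chosen with earlier results of these data known. The text names the 6 genes and, per list, the 4 members with the smallest p at 15 Gy or any called in all 4 series. A list member that the rule names is not reported here. The alternatives were library size scaling, DESeq2 1.42.0, no low-count filter, the mouse block, omission of each library, CPM on plain totals and Spearman likeness. Those for the list counts were added after seeing the data.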

Additional observations from a re-analysis of the deposited data

Results flagged for a closer look

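Col4a6, the chain that joins the product of Col4a5 in some epithelial basement membranes, went opposite ways at 15 Gy on day 2. All 3 photon libraries lay above every photon control and all 3 proton libraries below every proton control. On the log2 CPM scale with a prior count of 2 the mean differences from control were 0.62 for photons and -1.04 for protons, so that protons minus photons came to -1.65. It was picked out by these opposite directions from all family genes, days and doses. In the day 2 fit of both series edgeR called none of the 5 family genes tested for this difference at 15 Gy, and 0 of all genes. At an unadjusted p under 0.05 there were 2 family genes. The Col4a6 difference rests on 6 counts in the irradiated proton group. It comes from series irradiated on different dates, so radiation type and date cannot be told apart.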

How the results depend on the processing

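With mouse as a block, the pairing of libraries by mouse, the Col4a4 difference at 15 Gy of photons on day 6 was -1.86 (edgeR adjusted p = 0.0441) and passed, as it did without the low-count filter (-1.94, adjusted p = 0.00529), so that 1 of 5 genes was called under each in place of 0. The block also passed Col4a5 in the proton controls (-0.47, adjusted p = 0.0486) and changed no other call among the collagen IV genes. With library size in place of TMM scaling 1 gene, Col4a1, was called at 15 Gy of protons on day 6. The cause of these changes was not tested. Estimates near 0 changed sign: Col4a2 at 4 Gy of photons on day 6 was 0.0107 with library size, 0.0068 in DESeq2 and 0.0064 with the block, Col4a5 at 15 against 4 Gy of photons on day 6 was -0.0115 with library size and -0.00013 with the block, and Col4a4 at 4 Gy on day 6, protons minus photons, was -0.35 with the block.

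Leaving out single libraries moved Col4a4 at 15 Gy between -2.23 and -1.45 on day 6 after photons, -3.20 and -2.48 on day 2 after protons and -1.55 and -1.05 on day 6 after protons. Col4a1 in photon controls ran from -0.94 to -0.53. Genes called ran from 0 to 1 at 15 Gy on day 6 after either radiation, from 1 to 3 in photon controls and from 0 to 2 for protons minus photons at 15 Gy on day 6. The estimates below crossed 0, and all are on the log2 scale on day 6. After photons Col4a1, Col4a2 and Col4a5 at 4 Gy ran from -0.15 to 0.26, -0.17 to 0.23 and -0.21 to 0.027. Col4a1 and Col4a5 at 7 Gy ran from -0.23 to 0.18 and -0.078 to 0.095, and Col4a5 and Col4a6 at 15 Gy from -0.12 to 0.028 and -0.21 to 0.14. Col4a5 at 15 against 4 Gy ran from -0.075 to 0.16. After protons Col4a6 ran from -0.25 to 0.33, -0.24 to 0.34 and -0.12 to 0.44 at 4, 7 and 15 Gy, Col4a4 at 4 Gy from -1.34 to 0.011 and Col4a2 at 15 Gy from -0.041 to 0.47. At 15 against 4 Gy of protons Col4a1, Col4a2, Col4a4 and Col4a6 ran from -0.19 to 0.038, -0.49 to 0.027, -1.23 to 0.11 and -0.078 to 0.33. Col4a6 in proton controls, day 6 against day 2, ran from -0.0700 to 0.64. For protons minus photons Col4a4 ran from -0.80 to 0.55 at 4 Gy and -0.69 to 0.14 at 7 Gy, and Col4a6 from -0.045 to 0.55 at 15 Gy. Depth limits Col4a3 throughout and Col4a4 and Col4a6 at 15 Gy, where groups held few counts. CPM on plain totals and rank correlation changed no level beyond its spread and no sign of a likeness.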
